A study of Mus musculus with 18 samples.

Results

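The endothelin and Dlx genes of the pharyngeal arches were read in whole mouse embryos of an allelic series of Tbx1. The set named 10 genes: the ligand Edn1, its receptor Ednra, the homeobox genes Dlx1, Dlx2, Dlx3, Dlx5 and Dlx6, and the downstream genes Hand1, Gsc and Barx1. Members were all probe sets that the array's annotation pairs with exactly 1 of these symbols. This gave 11 probe sets of 45037 and 9 genes of the 18193 that the annotation names. No probe set carried Ednra in that annotation, so the receptor was not analysed here. Dlx3 and Hand1 had 2 probe sets each and the other 7 genes had 1.

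Each of 18 Affymetrix Mouse Genome 430 2.0 arrays held the RNA of 1 whole embryo of embryonic day 9.5, and each of 9 Tbx1 genotypes had 2 embryos. The genotypes were WT (no altered allele), Neo2/+, Neo/+ and +/- with 1 altered allele, and -/-, Neo/Neo, Neo2/-, Neo2/Neo and Neo2/Neo2 with no wild-type allele. Neo and Neo2 are known as hypomorphic alleles, which keep part of the gene's activity, and the minus sign stands for a null allele. The alleles are germline alleles that no Cre or promoter restricts, the labels name no treatment, and all embryos shared a mixed 129SvEv and C57Bl/6 background. The labels name no litter. Values are signals on the log2 scale, so a difference of 1 is a doubling. They rank embryos for 1 probe set and do not compare the amounts of different genes. In RNA of whole embryos, fewer cells of a type and less RNA per cell cannot be told apart.

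Tbx1 is a transcription factor of the T-box family, made in the pharyngeal endoderm, the core mesoderm of the arches and the otic vesicle. Beside it, the arches are patterned from top to bottom by endothelin signalling: Edn1 is secreted by the ectoderm, endoderm and core mesoderm of the lower part of an arch and acts through Ednra on neural crest cells. The receptor's signal maintains Dlx5 and Dlx6 in lower arch crest, which in turn act above Hand genes and Gsc, whereas Dlx1 and Dlx2 are made along the whole arch. Dlx3 follows in the lowest crest, and Barx1 marks crest that will form cartilage and tooth mesenchyme. Most of these genes are also used elsewhere at this age: Hand1 in the left ventricle, the lateral mesoderm and the extraembryonic membranes, Dlx5 in the otic and olfactory placodes and the limb ridge, Dlx3 in the placodes and the placenta, and Dlx1 and Dlx2 in the forebrain.

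Promoters of 5 of the 9 measured genes, Dlx1, Dlx2, Edn1, Gsc and Barx1, were found by symbol in a RefSeq table of mouse build GRCm38.p6. Dlx3, Dlx5, Dlx6 and Hand1 had no entry used here. The 250 bases before the start were searched on both strands for 4 motifs, and no match below overlaps another. A T-box half-site, GGTGTGA, was in none of the 5 promoters, against 3.33% of all 32851 promoters in the table. The homeobox core TAATTA was in none either, against 4.84%. The E-box CANNTG, bound by basic helix-loop-helix factors, the class of Hand1, was in 66.2% of all promoters and among the 5 in Dlx2 and Gsc. The TATA box letters TATAAA were in 12.4% of all promoters and among the 5 in Gsc alone. These 2 promoters are shown because they hold the matches, which capitals mark; the Dlx2 stretch is chr2:71546755-71547004 and the Gsc stretch chr12:104473237-104473486, both on the minus strand and written 5′ to 3′.
Dlx2: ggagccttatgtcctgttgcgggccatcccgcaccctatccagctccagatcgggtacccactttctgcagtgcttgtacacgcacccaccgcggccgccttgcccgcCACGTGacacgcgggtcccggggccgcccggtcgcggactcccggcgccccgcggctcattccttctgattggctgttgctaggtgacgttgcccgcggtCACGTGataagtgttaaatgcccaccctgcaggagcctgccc
Gsc: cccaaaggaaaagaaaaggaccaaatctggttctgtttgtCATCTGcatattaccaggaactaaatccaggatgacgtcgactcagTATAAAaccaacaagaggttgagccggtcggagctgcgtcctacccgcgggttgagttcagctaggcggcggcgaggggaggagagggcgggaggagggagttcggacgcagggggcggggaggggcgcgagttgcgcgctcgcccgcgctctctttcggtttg
In Dlx2 the E-box letters CACGTG occurred at 2 places, whose first bases lie 142 and 42 bases before the start. In Gsc the E-box letters CATCTG began 210 bases before the start and TATAAA 164 bases before it. A match of letters is a description of the sequence and shows no binding.

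The Tbx1 signal separated the embryos into 3 groups. It was between 6.13 and 6.63 in the 10 embryos of WT, Neo2/+, Neo/+, +/- and Neo2/Neo2, between 5.61 and 5.81 in the 4 embryos of Neo2/Neo and Neo2/-, and between 4.98 and 5.20 in the 4 embryos of Neo/Neo and -/-. Within the highest group Neo2/Neo2 read like WT, so the signal checks the labels of the lower groups and not those among these 10. Replicate 1 of +/- and replicate 1 of -/- resembled the remaining arrays least, with median correlations to them of 0.9753 and 0.985 against 0.9912 to 0.9948. Results that turn on these 2 arrays, called the arrays that stood apart, are given with and without them where both were computed. Sex was not balanced: by sex-linked transcripts, WT and -/- had females alone, Neo2/Neo2 and Neo/Neo had males alone, and the other genotypes had 1 female and 1 male.

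No member probe set was called in any of the 12 comparisons made, where limma's p, adjusted by Benjamini and Hochberg's method across the whole table, had to be under 0.05. The background was low as well. The called share of all probe sets was 0% in Neo2/+ against WT, 0.0311% in Neo/+, 0% in +/-, 0.00222% in each of Neo2/Neo2, Neo2/Neo and Neo2/-, 0.0822% in Neo/Neo and 0.0311% in -/-. It was 0.00666% for Neo/Neo and -/- against the 8 embryos with a wild-type allele, 0% for 0 against 1 or 2 wild-type alleles, 0% for the regression on the Tbx1 signal and 0.275% for the F-test of any difference between genotypes. At an unadjusted p under 0.05, 4 of 11 member probe sets passed the F-test, against 13.7% of all probe sets. The same count was 3 in the regression (8.74% of all), 3 in Neo2/Neo2 (11.6%), 3 in Neo/Neo and -/- against embryos with a wild-type allele (8.32%), 1 in -/- (15.1%) and 1 in Neo/+ (7.36%). It was 0 in Neo2/+ (6.51%), +/- (11.7%), Neo2/Neo (6.72%), Neo2/- (6.28%), Neo/Neo (7.01%) and 0 against 1 or 2 wild-type alleles (4.83%). Without replicate 1 of -/-, and without both arrays that stood apart, the counts for the regression and for Neo/Neo and -/- fell from 3 to 1. Leaving out any 1 array, they ran from 1 to 5 and from 0 to 6. With all arrays and each gene at its probe set of highest mean, 2 of 9 member genes passed the F-test. The gene count was 2 in the regression, 3 in Neo/Neo and -/-, 1 in Neo2/Neo2, 1 in -/- and 0 in Neo/+. Both Hand1 probe sets were among the 3 of Neo2/Neo2. With 2 embryos a genotype a difference has to be large to pass, and a member that was not called is not shown to be unaltered.

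**Figure D1:**
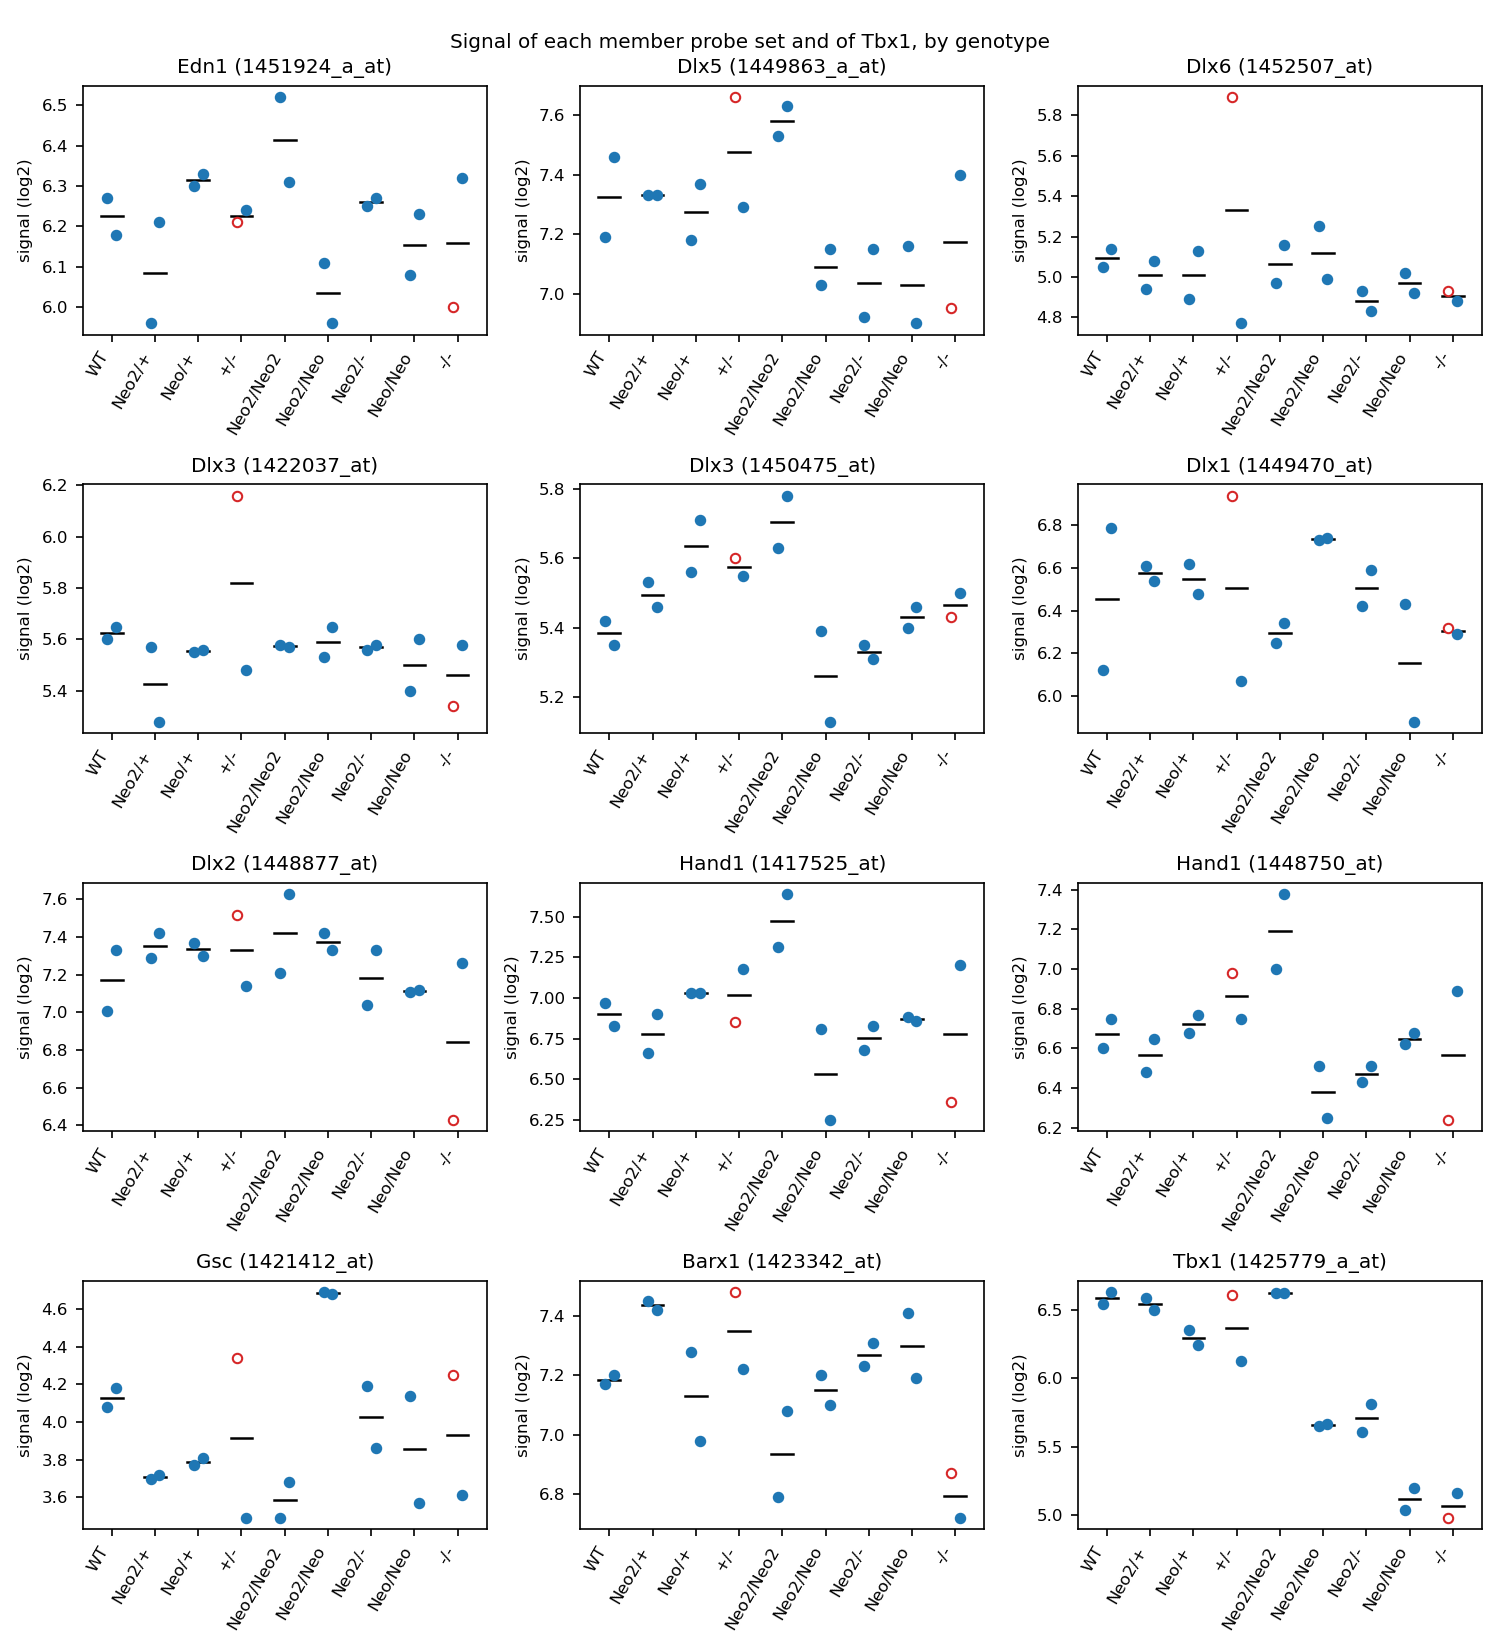
Signal (log2, vertical axes, each with its own range that does not start at 0) of the 11 member probe sets and of Tbx1 in each of 18 embryos, by genotype. Points are embryos, black lines the mean of 2, and open red points replicate 1 of +/- and of -/-, the arrays that stood apart. Hand1 is highest in both Neo2/Neo2 embryos, Gsc in both Neo2/Neo embryos, and Tbx1 falls into 3 groups of genotypes.

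Edn1, the ligand, had the narrowest range of genotype means among the members. Its signal was 6.27 and 6.18 in WT, 5.96 and 6.21 in Neo2/+, 6.30 and 6.33 in Neo/+, 6.21 and 6.24 in +/-, 6.52 and 6.31 in Neo2/Neo2, 6.11 and 5.96 in Neo2/Neo, 6.25 and 6.27 in Neo2/-, 6.08 and 6.23 in Neo/Neo, and 6.00 and 6.32 in -/-. The highest mean was in Neo2/Neo2 (6.42) and the lowest in Neo2/Neo (6.03), a difference of 0.38 or 1.30-fold, against a pooled SD within genotypes of 0.12. The embryos of WT, +/- and Neo2/- lay between those of these genotypes and overlapped neither. The -/- embryos, at 6.00 and 6.32, overlapped both. The slope on the Tbx1 signal was 0.08 (95% interval -0.038 to 0.197).

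Dlx5, which acts below Edn1 in lower arch crest, had the smallest p among the members in the regression on the Tbx1 signal. Its signal was 7.19 and 7.46 in WT, 7.33 and 7.33 in Neo2/+, 7.18 and 7.37 in Neo/+, 7.66 and 7.29 in +/-, and 7.53 and 7.63 in Neo2/Neo2. It was 7.03 and 7.15 in Neo2/Neo, 6.92 and 7.15 in Neo2/-, 7.16 and 6.90 in Neo/Neo, and 6.95 and 7.40 in -/-. Of the 8 embryos in the lower Tbx1 groups, 7 lay below all 10 embryos of the highest group, and the exception was replicate 2 of -/-. These groups were set after the Tbx1 values were seen. The share of all probe sets with such a count is not given, so it is not shown to be particular to Dlx5. The mean was 7.40 ± 0.17 (SD, n = 10) in the highest Tbx1 group, 7.07 ± 0.11 (n = 4) in the middle group and 7.10 ± 0.23 (n = 4) in the lowest. The step was between the highest group and the middle one, and the 2 lower groups lay within their spread of each other. The slope on Tbx1 was 0.26 per log2 unit (SE 0.07, 95% interval 0.120 to 0.396), with an adjusted p of 0.553 by limma and an unadjusted p of 0.0009. As for all slopes here, the fit has no term for genotype and treats embryos of 1 genotype as independent. Its SE, interval and p may therefore be too small. Without the 2 arrays that stood apart the slope was 0.22 and the adjusted p 0.909. No pooled r with Tbx1 is given, because the Tbx1 values fall into separate groups.

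Within the 10 embryos of the highest Tbx1 group, a split made after the values were seen, Dlx5 had a Pearson r of 0.53 with Tbx1 (permutation p = 0.117) and a Spearman rho of 0.65 (permutation p = 0.0496). Without the 2 embryos farthest from the median of Tbx1, r was 0.72 over 8 embryos. Dlx3 at 1422037_at had an r of 0.34 (permutation p = 0.342) and a rho of 0.75 (permutation p = 0.0176). Without the 2 farthest embryos its r was 0.35. Replicate 1 of +/-, which stood apart, is in all of these values. It had the highest Dlx5 (7.66) and the highest Dlx3 at 1422037_at (6.16) of the 10, and no r or rho without it is given. Over the members 11 such relations were computed, and these p-values carry no adjustment. In limma, no member's slope within these 10 embryos was called, and each adjusted p was 0.99995.

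Dlx6, the neighbour of Dlx5 on the chromosome, did not share that order. Its signal was 5.05 and 5.14 in WT, 4.94 and 5.08 in Neo2/+, 4.89 and 5.13 in Neo/+, 5.89 and 4.77 in +/-, 4.97 and 5.16 in Neo2/Neo2, 5.25 and 4.99 in Neo2/Neo, 4.93 and 4.83 in Neo2/-, 5.02 and 4.92 in Neo/Neo, and 4.93 and 4.88 in -/-. All embryos but 1 lay between 4.77 and 5.25, and the exception was replicate 1 of +/-, one of the arrays that stood apart. The highest mean, 5.33 in +/-, rested on that embryo. The correlation of Dlx6 with Dlx5 over the 18 arrays was 0.50, which placed Dlx6 at rank 1746 of 18192 genes ordered by likeness to Dlx5. This probe set is dim (percentile 39.7 of all probe sets by mean), and background may make up part of a signal this low.

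Dlx3, the homeobox gene of the lowest arch crest, was read by 2 probe sets that disagreed: their correlation over 18 arrays was 0.12. At 1450475_at the signal was 5.42 and 5.35 in WT, 5.53 and 5.46 in Neo2/+, 5.56 and 5.71 in Neo/+, 5.60 and 5.55 in +/-, 5.63 and 5.78 in Neo2/Neo2, 5.39 and 5.13 in Neo2/Neo, 5.35 and 5.31 in Neo2/-, 5.40 and 5.46 in Neo/Neo, and 5.43 and 5.50 in -/-. Neo2/Neo2 was highest and Neo2/Neo lowest, with means of 5.70 and 5.26 and a pooled SD of 0.08. Against WT the difference was 0.32 in Neo2/Neo2 (limma adjusted p = 0.274) and 0.25 in Neo/+ (adjusted p = 0.638). The F-test gave an adjusted p of 0.259. At 1422037_at the signal ran from 5.28 to 5.65 in 17 embryos, with 6.16 in replicate 1 of +/-. The genotype pattern of the other probe set was not seen there, so neither is taken as the level of Dlx3.

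Dlx2, made along the whole arch, was lowest in a single -/- embryo. Its signal was 7.01 and 7.33 in WT, 7.29 and 7.42 in Neo2/+, 7.37 and 7.30 in Neo/+, 7.52 and 7.14 in +/-, 7.21 and 7.63 in Neo2/Neo2, 7.42 and 7.33 in Neo2/Neo, 7.04 and 7.33 in Neo2/-, 7.11 and 7.12 in Neo/Neo, and 6.43 and 7.26 in -/-. The other -/- embryo lay among the rest, and so did both Neo/Neo embryos. Neo/Neo and -/- together differed from embryos with a wild-type allele by -0.32 (SE 0.14, limma adjusted p = 0.589), and by -0.06 without the 2 arrays that stood apart. The slope on Tbx1 was 0.23 (95% interval 0.059 to 0.407) and 0.10 without those arrays. Both values of Dlx2 therefore rest on that pair of arrays.

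Dlx1, next to Dlx2 on the chromosome, varied more between replicates than between genotypes in several groups. Its signal was 6.12 and 6.79 in WT, 6.61 and 6.54 in Neo2/+, 6.62 and 6.48 in Neo/+, 6.94 and 6.07 in +/-, 6.25 and 6.34 in Neo2/Neo2, 6.73 and 6.74 in Neo2/Neo, 6.42 and 6.59 in Neo2/-, 6.43 and 5.88 in Neo/Neo, and 6.32 and 6.29 in -/-. Genotype means ran from 6.16 in Neo/Neo to 6.73 in Neo2/Neo, with a pooled SD of 0.29. WT and +/- alone covered most of that span. Its correlation with Dlx2 over the 18 arrays was 0.47, rank 626 of 18192 genes.

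Hand1, a basic helix-loop-helix factor of lower arch crest and of the left ventricle, was highest in Neo2/Neo2, and both of its probe sets showed it. At 1417525_at the signal was 6.97 and 6.83 in WT, 6.66 and 6.90 in Neo2/+, 7.03 and 7.03 in Neo/+, 6.85 and 7.18 in +/-, 7.31 and 7.64 in Neo2/Neo2, 6.81 and 6.25 in Neo2/Neo, 6.68 and 6.83 in Neo2/-, 6.88 and 6.86 in Neo/Neo, and 6.36 and 7.20 in -/-. At 1448750_at it was 6.60 and 6.75 in WT, 6.48 and 6.65 in Neo2/+, 6.68 and 6.77 in Neo/+, 6.98 and 6.75 in +/-, 7.0 and 7.38 in Neo2/Neo2, 6.51 and 6.25 in Neo2/Neo, 6.43 and 6.51 in Neo2/-, 6.62 and 6.68 in Neo/Neo, and 6.24 and 6.89 in -/-. At both probe sets the 2 Neo2/Neo2 embryos lay above the other 16. The share of all probe sets with such a separation is not given, so it is not shown to be particular to Hand1. The probe sets agreed over embryos, with a correlation of 0.91 over 18 arrays.

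The difference of Hand1 between Neo2/Neo2 and WT was 0.57, or 1.49-fold, at the first probe set (SE 0.24, limma adjusted p = 0.388) and 0.52, or 1.44-fold, at the second (SE 0.19, adjusted p = 0.312). The adjusted p was 0.0971 and 0.0644 without the 2 arrays that stood apart. These genotypes also differed in sex (males against females), and with sex in the fit the first difference was 0.55 (adjusted p = 0.807). The lowest mean was in Neo2/Neo at both probe sets, 6.53 and 6.38, and the range of means was 1.93-fold and 1.76-fold. Genotypes with the least Tbx1 were not lowest: Neo/Neo differed from WT by -0.03 and -0.02, and the 2 -/- embryos lay on either side of WT at both probe sets. The slopes on Tbx1 were 0.21 and 0.21 (95% intervals -0.025 to 0.447 and 0.019 to 0.410).

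Gsc, a homeobox gene of arch mesenchyme that depends on endothelin signalling, showed the opposite order. Its signal was 4.08 and 4.18 in WT, 3.70 and 3.72 in Neo2/+, 3.77 and 3.81 in Neo/+, 4.34 and 3.49 in +/-, 3.49 and 3.68 in Neo2/Neo2, 4.69 and 4.68 in Neo2/Neo, 4.19 and 3.86 in Neo2/-, 4.14 and 3.57 in Neo/Neo, and 4.25 and 3.61 in -/-. Both Neo2/Neo embryos lay above the other 16, whose highest was 4.34, and Neo2/Neo2 had the lowest mean. The share of all probe sets in which Neo2/Neo stands apart in this way is not given. The means of these genotypes were 4.68 and 3.59. Transcripts that should be absent read at about the same level. Averaged over their probe sets, Y-linked genes were between 3.24 and 3.98 in female embryos and Xist between 3.78 and 4.35 in male embryos. Outside Neo2/Neo the Gsc signal lay within the range of these averages, which come from other probe sets and do not show the spread of single ones. Presence of Gsc in those embryos is therefore not shown, and no fold is given. Against WT the difference was 0.55 in Neo2/Neo (SE 0.26, limma adjusted p = 0.752) and -0.55 in Neo2/Neo2 (adjusted p = 0.452). The F-test gave an adjusted p of 0.355 with all arrays. It was 0.0365 without the 2 arrays that stood apart and 0.0361 with array weights, where 2.77% and 2.96% of all probe sets were called. The probe set is dim (percentile 23.1 of all probe sets by mean). The slope on Tbx1 was -0.14 (95% interval -0.426 to 0.150).

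Neo2/Neo2 and Neo2/Neo stood at opposite ends for Hand1, Gsc, Edn1 and the second Dlx3 probe set, and the same 2 genotypes stood at opposite ends of the lists of developmental timing and of neurons. To score a list, each gene was centred on its average across all embryos, and the centred log2 values of the list's genes were averaged. The timing list holds transcripts known to decline as the embryo matures, such as the RNA-binding protein gene Lin28a, and 8 of its 8 genes were measured. Its score was 0.38 in Neo2/Neo2, -0.41 in Neo2/Neo and between -0.12 and 0.12 in the other genotypes. A few genes carried it: in Neo2/Neo2 against WT, 5 of 8 lay above 0, with Lin28a (1.56), Prtg (1.15) and Trim71 (0.92) the furthest, and Lin28b (-0.19), Hmga2 (-0.08) and Igf2bp1 (-0.15) lay below. The Lin28b signal, between 3.22 and 3.87, was at the level of absent transcripts. In Neo2/Neo against WT, 7 of the 8 timing genes lay below 0, with a median of -0.095. The score of the 10 neuron genes was -0.74 in Neo2/Neo2 and 0.87 in Neo2/Neo. By genotype mean, Lin28a was 11.72 in Neo2/Neo2, 10.16 in WT and 9.39 in Neo2/Neo, and Tubb3, the tubulin of young neurons, was 8.28, 9.52 and 10.19.

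Replicates of a genotype differed in the same lists, and most of all in -/-. The timing score was -0.56 in replicate 1 and 0.32 in replicate 2 of -/-, and the neuron score 0.16 and -0.75. In the same embryos Hand1 at 1417525_at was 6.36 and 7.20, and Gsc 4.25 and 3.61. Over the 18 arrays the correlation of Hand1 was 0.78 with Lin28a and -0.76 with Tubb3, and that of Gsc was -0.79 and 0.79. The correlation of Edn1 with Lin28a was 0.75 and that of Dlx5 0.61. With Dlx5, 6 of the 8 timing genes correlated above 0 and 2 below (Lin28b -0.22 and Hmga2 -0.17). Of the 8 timing genes, 7 correlated above 0 with Hand1 (from -0.57 for Lin28b to 0.85 for Prtg), 7 above 0 with Edn1, and 7 below 0 with Gsc (from -0.85 for Trim71 to 0.31 for Lin28b). Lin28b ran the other way for Hand1, Edn1 and Gsc, but its signal, between 3.22 and 3.87, was at the level of absent transcripts. These are descriptions over arrays that share genotypes and 1 normalization. The part of embryonic stage in the values of Hand1, Gsc, Edn1, Dlx3 and Dlx5 was not tested.

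**Figure D2:**
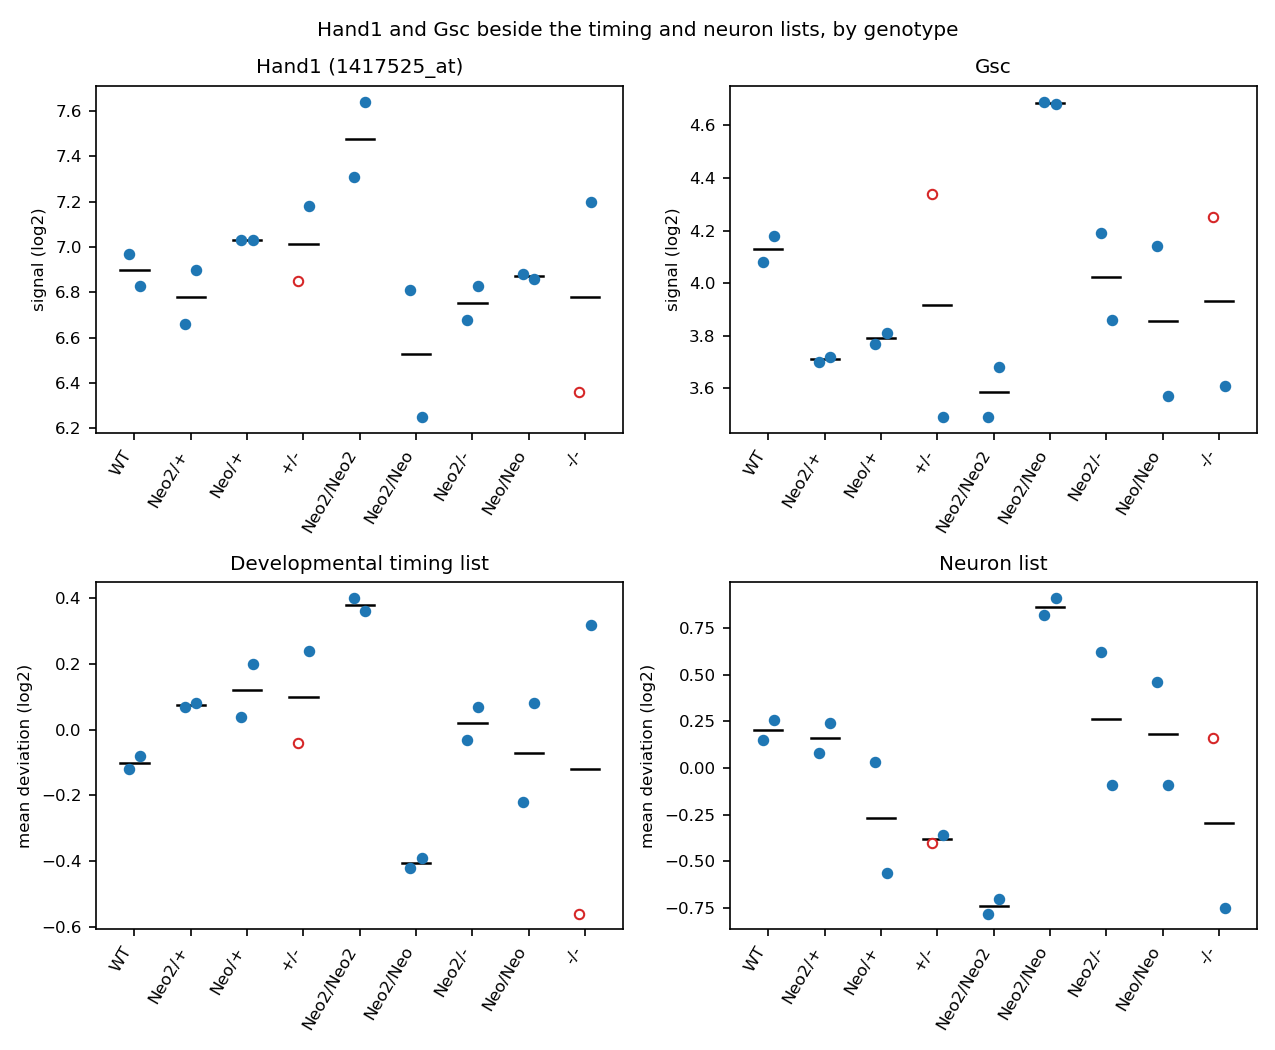
Upper panels give the signal (log2) of Hand1 and Gsc in each embryo by genotype, and lower panels the mean deviation (log2) of the developmental timing list and the neuron list from their means over 18 arrays. Points are embryos, black lines the mean of 2, and open red points the arrays that stood apart. Neo2/Neo2 and Neo2/Neo lie at opposite ends of all 4 panels by mean, with timing scores of 0.38 and -0.41 and neuron scores of -0.74 and 0.87.

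Tissues other than the arches that make these genes were read by their own lists. The 10 left ventricle genes had a score of 0.23 in Neo2/Neo2 and -0.13 in Neo2/Neo, and the 9 genes of extraembryonic mesoderm and amnion 0.31 and -0.31, the genotypes with the highest and the lowest mean of Hand1. On the left ventricle list Neo/Neo scored 0.13 and Neo/+ 0.01, with Hand1 means at 1417525_at of 6.87 and 7.03. On the extraembryonic list Neo/+ came next below Neo2/Neo2, at 0.22, and its Hand1 mean did so too at that probe set. The +/- genotype scored -0.08 on that list, with a Hand1 mean of 7.01 at that probe set. At 1448750_at the Hand1 mean next below Neo2/Neo2 was that of +/- (6.87, against 6.72 in Neo/+). On the extraembryonic list Neo/Neo scored 0.08 and WT -0.08, with Hand1 means at 1417525_at of 6.87 and 6.90. The part of these tissues in the Hand1 values was not tested. Of the 14 trophoblast and placenta genes 7 were measured, with scores between -0.11 and 0.10 over genotypes. Tpbpa and Esx1, markers of spongiotrophoblast and labyrinth, had means of 3.23 and 3.63 and no genotype mean of either exceeded 3.76. The 13 neural crest genes had scores from -0.14 in -/- to 0.11 in Neo2/Neo. Scores of the 12 limb bud and apical ridge genes ran from -0.11 in WT to 0.19 in Neo2/Neo2. The mean of Dlx5 was also highest in Neo2/Neo2 (7.58). It was 7.32 in WT and 7.04 in Neo2/-, whose limb score was 0.12. The 9 measured genes of the otic and olfactory placodes had scores from -0.11 in Neo/Neo to 0.16 in Neo2/Neo2, which are also the genotypes with the lowest and the highest mean of Dlx5. Between these ends the order differed: Neo2/- scored 0.02 with a Dlx5 mean of 7.04, and Neo2/+ scored -0.08 with 7.33. The part of limb and placodes in the Dlx5 values was not tested. Of the 10 ventral forebrain genes 7 were measured, with scores from -0.08 in -/- to 0.09 in Neo2/Neo. The 8 visceral endoderm genes had scores of -0.34 in Neo2/Neo2 and 0.46 in Neo2/Neo.

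Barx1, a homeobox gene of arch mesenchyme that will form cartilage and teeth, was lowest in -/-. Its signal was 7.17 and 7.20 in WT, 7.45 and 7.42 in Neo2/+, 7.28 and 6.98 in Neo/+, 7.48 and 7.22 in +/-, 6.79 and 7.08 in Neo2/Neo2, 7.20 and 7.10 in Neo2/Neo, 7.23 and 7.31 in Neo2/-, 7.41 and 7.19 in Neo/Neo, and 6.87 and 6.72 in -/-. Both -/- embryos lay below all others except replicate 1 of Neo2/Neo2. The difference from WT was -0.39 (SE 0.14, limma adjusted p = 0.220), and -0.46 without the 2 arrays that stood apart (adjusted p = 0.181). Neo/Neo, whose Tbx1 signal was about as low, had 7.41 and 7.19. Neo2/Neo2, in the highest Tbx1 group, had a mean of 6.93 against 6.80 in -/-. The share of all probe sets in which both -/- embryos lie this low is not given. For Neo/Neo and -/- together against embryos with a wild-type allele, the difference was -0.23 (SE 0.08, 95% interval -0.408 to -0.046, adjusted p = 0.589). The F-test of any difference between genotypes gave an adjusted p of 0.230. The slope on Tbx1 was 0.09, with an interval from -0.077 to 0.267.

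**Figure D3:**
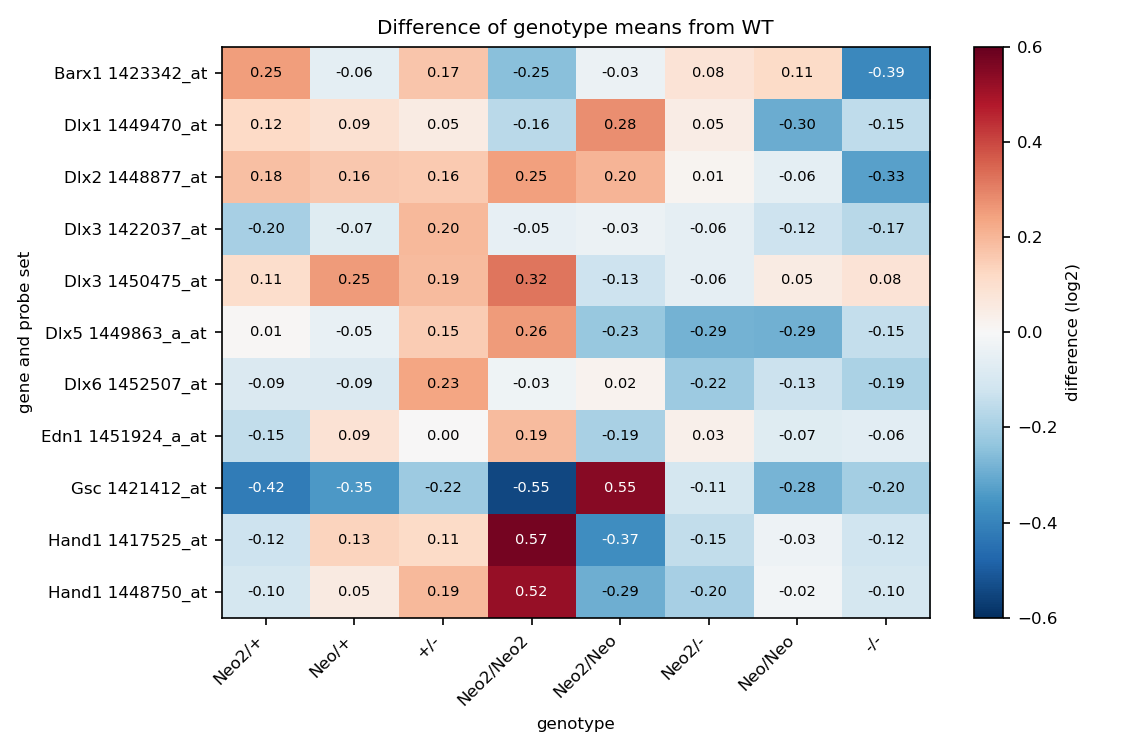
Difference (log2, colour scale from -0.6 to 0.6 and printed in each cell) between the mean of each genotype (horizontal axis) and WT for the 11 member probe sets (vertical axis), with 2 embryos a genotype. Among the strongest colours are Hand1 in Neo2/Neo2 (0.57 and 0.52), Gsc in Neo2/Neo2 (-0.55), Neo2/Neo (0.55) and Neo2/+ (-0.42), and Barx1 in -/- (-0.39); none passed the test.

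Across the members, the direction of the null comparisons rested on the arrays that stood apart. In -/- against WT, 10 of 11 member probe sets lay below 0, with a median of -0.152; without those 2 arrays 5 of 11 did, with a median of 0.082. In +/- against WT, 10 of 11 lay above 0 with a median of 0.157, and 5 of 11 with a median of -0.03 without them. In Neo/Neo and -/- against embryos with a wild-type allele, 10 of 11 lay below 0 (median -0.127), and 7 of 11 (median -0.047) without them. The slope on Tbx1 was above 0 for 10 of 11 both with all arrays (median 0.131) and without those 2 (median 0.082), and Gsc was the exception with all arrays. The median over all genes was 0.02 in -/- against WT, 0.036 in +/- against WT and 0.006 for the slope. These comparisons share embryos, and their counts are descriptions.

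**Figure D4:**
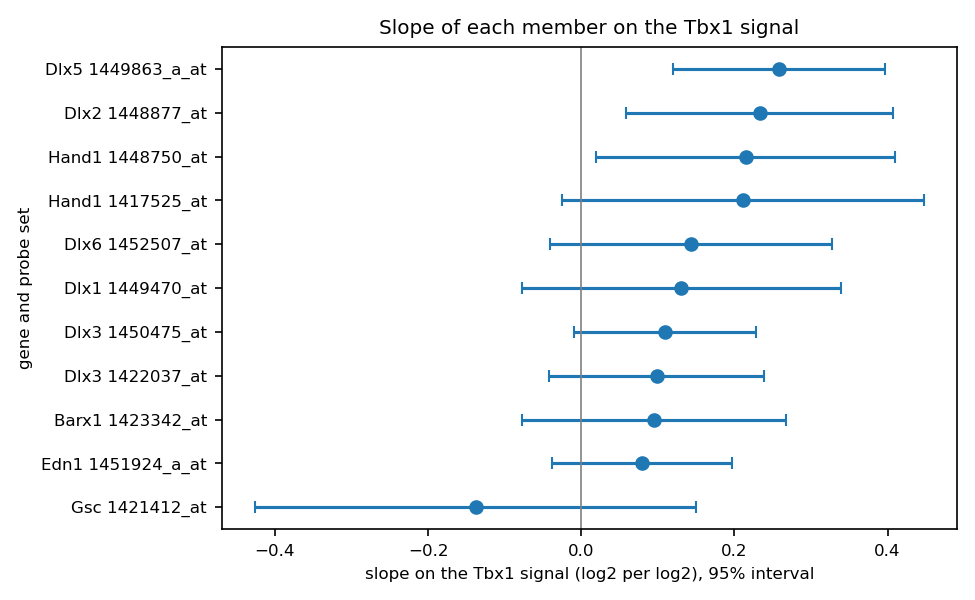
Slope on the Tbx1 signal (log2 per log2 unit, horizontal axis) of each member probe set over 18 embryos. Points are limma estimates from a fit without a term for genotype. Bars are 95% intervals without adjustment over probe sets, and the grey line is 0. The intervals of Dlx5 (0.120 to 0.396), Dlx2 (0.059 to 0.407) and 1 of the Hand1 probe sets (0.019 to 0.410) do not reach 0, and no slope passed the adjusted threshold.

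**Figure D5:**
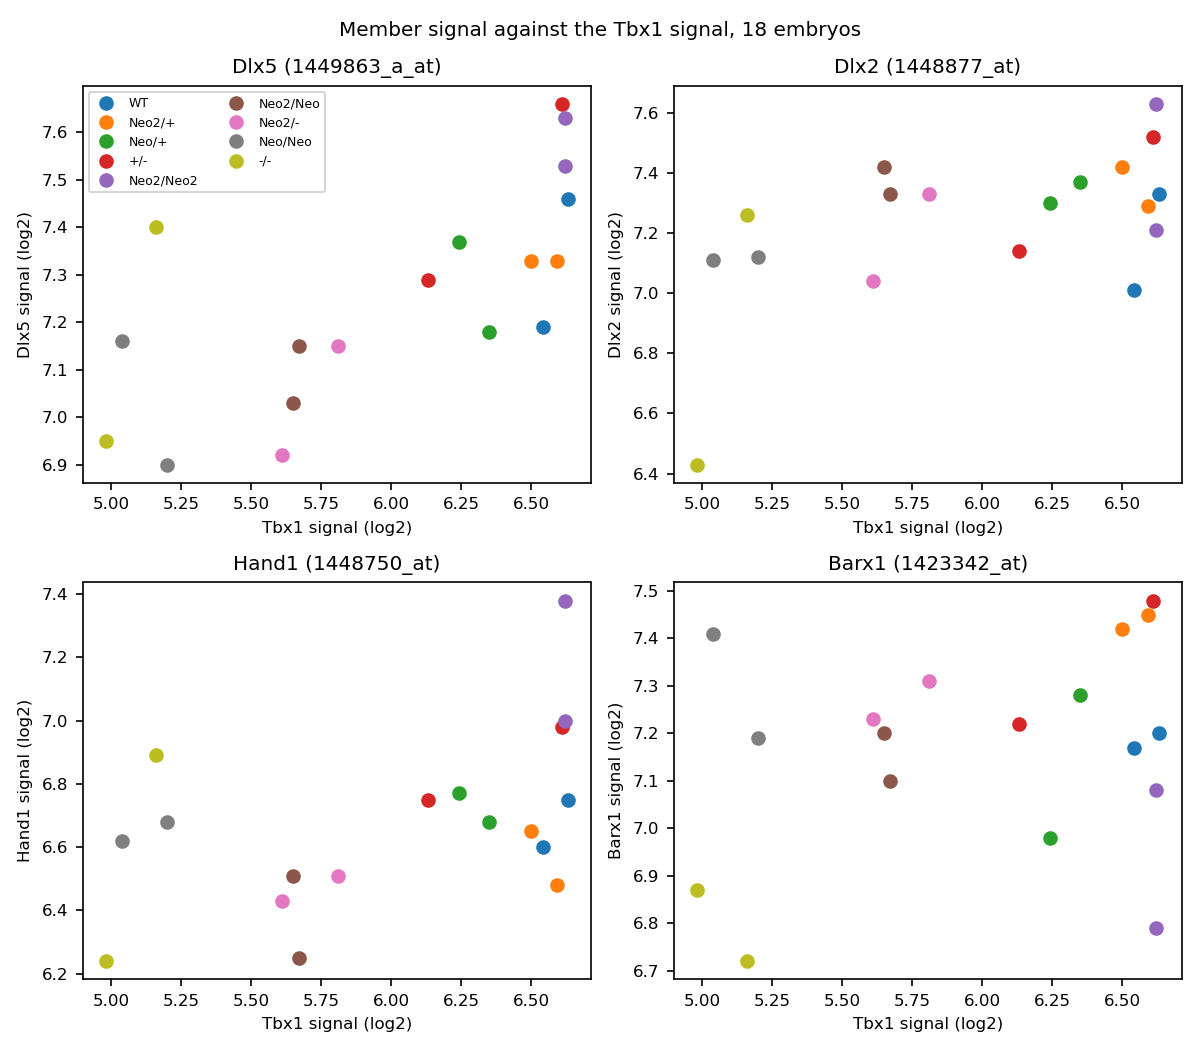
Signal (log2) of Dlx5, Dlx2, Hand1 and Barx1 on the vertical axes against the Tbx1 signal (log2) on the horizontal axes in 18 embryos, coloured by genotype. Tbx1 falls into 3 separate groups, and Dlx5 is below 7.18 in 7 of the 8 embryos of the lower groups. The lowest Dlx2 value is 6.43 in a -/- embryo. The mean of Barx1 is 6.80 in -/-, 6.93 in Neo2/Neo2 and 7.30 in Neo/Neo.

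The wider endothelin pathway was read through a list of 14 genes, all of them measured, covering ligands, receptors, converting enzymes and the G proteins below the receptors. With all arrays, none passed the test in any of the 12 comparisons, in either direction. The smallest p of the F-test were those of Ece2 and Ecel1, members of the endothelin-converting enzyme family, with adjusted p of 0.220 and 0.224 (limma). In -/- against WT, Ece2 differed by 0.38 (adjusted p = 0.180). On the Tbx1 signal, the slope of Ece1, the enzyme that cuts the Edn1 precursor, was 0.22 (adjusted p = 0.558), that of the ligand gene Edn3 0.11, that of the protease gene Furin 0.11, and that of the receptor gene Ednrb -0.26. Without the 2 arrays that stood apart these slopes were 0.09, 0.14, 0.02 and -0.10 in the same order, so those of Ece1, Furin and Ednrb rested on that pair. All 4 adjusted p were above the threshold in both fits.

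The arch patterning list held 35 genes, of which 32 were measured, and none passed in any comparison with all arrays. By the F-test, Nr2f1, a nuclear receptor gene of upper arch crest, had an adjusted p of 0.0823 and the Notch ligand gene Jag1, which marks the upper arch, 0.105 (limma). In -/- against WT, Nr2f1 differed by -0.45 (adjusted p = 0.127), Nr2f2 by -0.50 and Jag1 by -0.32. Without replicate 1 of +/- and of -/- these differences were -0.42, -0.28 and -0.13. In Neo2/Neo2 against WT, Lhx8, a LIM homeobox gene of oral jaw mesenchyme and of the forebrain, differed by -1.65 (adjusted p = 0.206) and its relative Lhx6 by -0.59. In that comparison 3 genes of the list passed without the 2 arrays that stood apart, where 2.02% of all probe sets were called: Lhx8 (adjusted p = 0.0262), the homeobox genes Msx2 (0.43, adjusted p = 0.0290) and Gbx2 (0.88, adjusted p = 0.0251). Without those arrays Lhx8 and Gbx2 also passed the F-test (adjusted p = 0.0316 and 0.0290). Dlx1as, transcribed antisense at the Dlx1 locus, had no signal above the level of absent transcripts, with a highest value of 4.33, and no difference is given for it. Over all 12 lists beside the members, 131 of 145 genes were measured and, with all arrays, 0 were called in any of the 12 comparisons.

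No member was among the 3 genes most like another member over the 18 arrays. Each member was represented by its probe set of highest mean and ranked against 18192 genes by Pearson correlation. Closest to Hand1 were Gpx3 (0.94), Slc2a3 (0.94) and Tmem88 (0.93), and to Edn1 Fam169a (0.87), Cobll1 (0.85) and Gata5 (0.84). Closest to Gsc were Fibin (0.91), Lama2 (0.90) and Cnmd (0.90). Closest to Dlx5 were Ino80e (0.88), Daxx (0.82) and Amdhd1 (0.81), and to Dlx2 Atf7 (0.87), Irs2 (0.86) and Arhgef1 (0.86). Closest to Dlx1 were Cd2bp2 (0.81), Slc24a1 (0.80) and Gnb5 (0.79), and to Dlx3 Hs3st6 (0.91), Mmp1a (0.90) and Vwa3b (0.90). Closest to Dlx6 were H2-M9, Atp8b1 and Fbxl13 (0.88 each), and to Barx1 Rassf4 (0.81), Cnppd1 (0.81) and Stx16 (0.80). Dlx3 was read here at 1422037_at. At that probe set and at Dlx6, replicate 1 of +/- read 6.16 and 5.89, against at most 5.65 and 5.25 in the other embryos. No ranking without that embryo is given.

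Among the members themselves, the nearest pair was Edn1 and Hand1: their correlation was 0.78, and Hand1 was 20th in likeness to Edn1. The ranking was not mutual, since Edn1 was 237th in likeness to Hand1. Gsc and Hand1 ran against each other, with a correlation of -0.66. These correlations are over 18 arrays that share genotypes, replicate 1 of +/- and of -/- included, and are descriptions only.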

How the data were processed

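The deposited values are log2 signals per probe set, and the submitters' processing notes name affy and RMA, with no version. RMA corrects background, equalises the arrays' distributions and summarises probes, which can shrink small differences. Biotin-labelled cRNA was made from total RNA, per the labels' protocols. RMA values carry no detection call, and precision is limited by how many arrays there were.

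Genes were named through GEO's platform annotation, which gives 1 symbol to 34945 of 45037 probe sets. Limma 3.58.1 in R 4.3.3 fitted 9 genotype means (9 residual and 3.63 prior degrees of freedom), a contrast by presence of a wild-type allele (16 residual degrees of freedom) and a regression on Tbx1. All tests were two-sided, with Benjamini-Hochberg adjustment over all probe sets and a threshold of 0.05, and were tested on simulated data. Intervals are 95% intervals. Correlation p-values are from permutation tests. Replicates are separate embryos, per the labels.

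The members and all lists were chosen with earlier results of these data known. Of the other lists, the text names Tbx1 always and otherwise up to 4 genes with the smallest p per list and comparison, and for likeness the 3 genes with the highest correlation per member, plus Lin28a and Tubb3. Tpbpa, Esx1, Prtg, Trim71, Lin28b, Hmga2, Igf2bp1, Gbx2 and Msx2 were named after their values were seen. Alternatives changed the spread model, array weights, sex, scaling, a filter on dim probe sets (mean of at least 5), a replicate block, the arrays used, the Tbx1 scale and the probe set rule.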

Additional observations from a re-analysis of the deposited data

Results flagged for a closer look

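In 4 of 33 groups of embryos checked, 1 embryo stood far from the rest of its group; chance alone flags about 1 in 20 groups. Dlx6 was 5.89 in replicate 1 of +/-, against 4.77 to 5.14 in the other embryos with a wild-type allele. Dlx3 at 1422037_at was 6.16 in the same embryo, against 5.28 to 5.65. Dlx2 was 6.43 in replicate 1 of -/-, against 7.04 to 7.63 in the other embryos without a wild-type allele. These 3 values come from the 2 arrays that stood apart over all probe sets. Edn1 was 5.96 in replicate 1 of Neo2/+, against 6.18 to 6.33 in the other embryos with a wild-type allele.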

How the results depend on the processing

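The count of member probe sets called in the F-test of any difference between genotypes was 1 with array weights and 1 without the 2 arrays that stood apart, in both cases Gsc. Leaving out 1 array at a time, member counts ran from 0 to 2 in the F-test, 0 to 2 in +/- against WT, 0 to 1 in -/- against WT and 0 to 1 in Neo/Neo and -/- against embryos with a wild-type allele (the contrast of low Tbx1). All such calls came from leaving out replicate 2 of +/- or replicate 2 of -/-, which leaves an array that stood apart as the lone embryo of its genotype. In those fits the calls over all probe sets rose as well, so the member calls are not particular to the members. Without replicate 2 of +/-, Dlx6 differed from WT by 0.79 and Dlx3 at 1422037_at by 0.54. In the contrast of low Tbx1, Dlx6 then differed by -0.31. Without replicate 2 of -/-, Dlx2 differed by -0.74 from WT and by -0.52 in the contrast of low Tbx1. The cause was not tested. The slope of Barx1 on Tbx1 turned to -0.027 with array weights. Of 121 differences and slopes of members, 56 changed sign under some alternative. The slope of Dlx5 stayed above 0 in every alternative run. Over all probe sets, counts of calls ran from 0 to 5121 in -/-, 0 to 5066 in +/-, 2 to 3770 in the contrast of low Tbx1 and 21 to 4777 in the F-test. With the replicate block no member was called (0 probe sets), and the slope of Dlx5 was 0.26. The replicate numbers did not pair embryos: over 36 pairs of genotypes the correlation of replicate deviations had a median of 0.04, from -0.26 to 0.19.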
